A study of Homo sapiens with 3 samples.

Results

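Kinetochore and spindle assembly genes encode the proteins that build the attachment site for microtubules on each centromere, monitor that attachment and organise the mitotic spindle. A list of 55 such genes was followed, in 11 groups by role, and its members were found as probe sets annotated to a single symbol on that list. In all 54 of the 55 genes had such a probe set, among 18131 genes represented on the arrays, and together they had 132 of 49388 probe sets. The only probe set of PTTG1, the securin gene, also carried the symbol of a related pseudogene, so PTTG1 was not analysed here.

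The arrays came from LNCaP, an established human prostate cancer line with luminal features, grown in phenol red-free medium with serum, in which the series looked for genes that respond to knockdown of the long non-coding RNA HOXD-AS1. Cells of the control group received a negative control siRNA, and the other groups received 1 of 2 siRNAs named for HOXD-AS1, each at 75 nM with a lipid carrier, and RNA was taken at 48 h. Each of the 3 groups held 1 array, so no difference below has a replicate check, no test was possible and no error can be attached to a value. The cell line label was LNCaP for all arrays, but the source names were LNCaP for the control, LNCaP-Bic for siRNA 1 and LNCaP-AI for siRNA 2, so cells of those names and siRNAs cannot be told apart. An inhibition rate is listed in the labels as 0.23 (siRNA 1) and 0.25 (siRNA 2), with the control at 1 and no account of how it was obtained. The labels also place the siRNAs by positions 588 and 1290 on the coding sequence of WDR5, another gene. HOXD-AS1 is now named HAGLR, a symbol that no probe set carried here, and knockdown of the targeted RNA was therefore not analysed here. The sequences given for the siRNAs are shown because they define the treatments; capitals mark the last 2 of their 21 bases.
control siRNA: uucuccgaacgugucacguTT
HOXD-AS1 siRNA 1: gaaagaaggaccaaaguaaUU
HOXD-AS1 siRNA 2: gcccuuucugaccugcuuaUU

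The kinetochore is assembled in layers. Nucleosomes holding the histone variant CENP-A mark the centromere, a constitutive network of centromere proteins sits on them for most of the cell cycle, and the MIS12, NDC80 and SKA complexes and the fibrous corona join it toward and during mitosis to bind microtubules. Checkpoint proteins at unattached kinetochores hold back CDC20, the activator of the anaphase-promoting complex, until every chromosome is attached. Many of these genes are transcribed mainly in G2 and mitosis, so their level in a bulk culture depends on how many cells are in those phases. Fewer such cells and less RNA per cell cannot be told apart in these arrays.

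On both siRNA arrays most kinetochore and spindle genes read below the control array, and the siRNA 1 array read lowest. Values are deposited probe set intensities on a linear scale. A gene is represented by its probe set of highest mean log2 intensity, and intensities below 26.0, the median of all values on the 3 arrays, were raised to that floor before differences were taken on the log2 scale. The control array read highest for 50 of the 54 members, which is 92.6% of them, while 32.1% of the 11286 genes above the floor on at least 1 array, called measured below, were lower with both siRNAs (20.0% of all genes). In 47 of these 50 the order was control, siRNA 2, siRNA 1 from the highest to the lowest, in 3 siRNA 2 was the lowest, in 2 members the control was the lowest, against 34.3% of measured genes (21.4% of all genes), and in 2 it lay between the siRNA arrays. The median log2 difference was -0.92 for siRNA 1 minus control and -0.44 for siRNA 2 minus control, and the medians over all measured genes were 0.00 and 0.01. The quartiles of the members were -1.22 and -0.62 with siRNA 1, and -0.56 and -0.23 with siRNA 2. All 54 members were above the floor on the control array and 52 on all 3 arrays, so the floor limits few of these values.

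A difference of 2-fold or more was counted as a call. With siRNA 1, 25 of the 54 members were at least 2-fold lower, 46.3% of them, against 1.76% of measured genes (1.10% of all 18131 genes). With siRNA 2 the count was 2 members, CDC20 and TROAP, against 0.603% of measured genes (0.375% of all genes). Both were also called with siRNA 1, against 0.0797% of measured genes called with both siRNAs (0.0496% of all genes). None of the 54 was 2-fold higher with either siRNA, where 153 of all 18131 genes were with siRNA 1 and 89 with siRNA 2. Those shares are so small that a count of none says little about the members. With all probe sets of a gene averaged the counts were 15 and 0, so the siRNA 2 calls of CDC20 and TROAP rest on their brightest probe sets or, for TROAP, the 2 brightest. At 1.5-fold, 42 members were lower with siRNA 1 (77.8%, against 6.16% of measured and 3.83% of all genes). With siRNA 2 the count at 1.5-fold was 11 (20.4%, against 4.67% of measured and 2.91% of all genes), and all 11 were among the 42, against 1.52% of measured and 0.949% of all genes past 1.5-fold with both siRNAs. The 25 members made up 12.6% of the 199 genes that were at least 2-fold lower with siRNA 1. Both differences use the same control array, so a high or low reading there enters both.

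**Figure D1:**
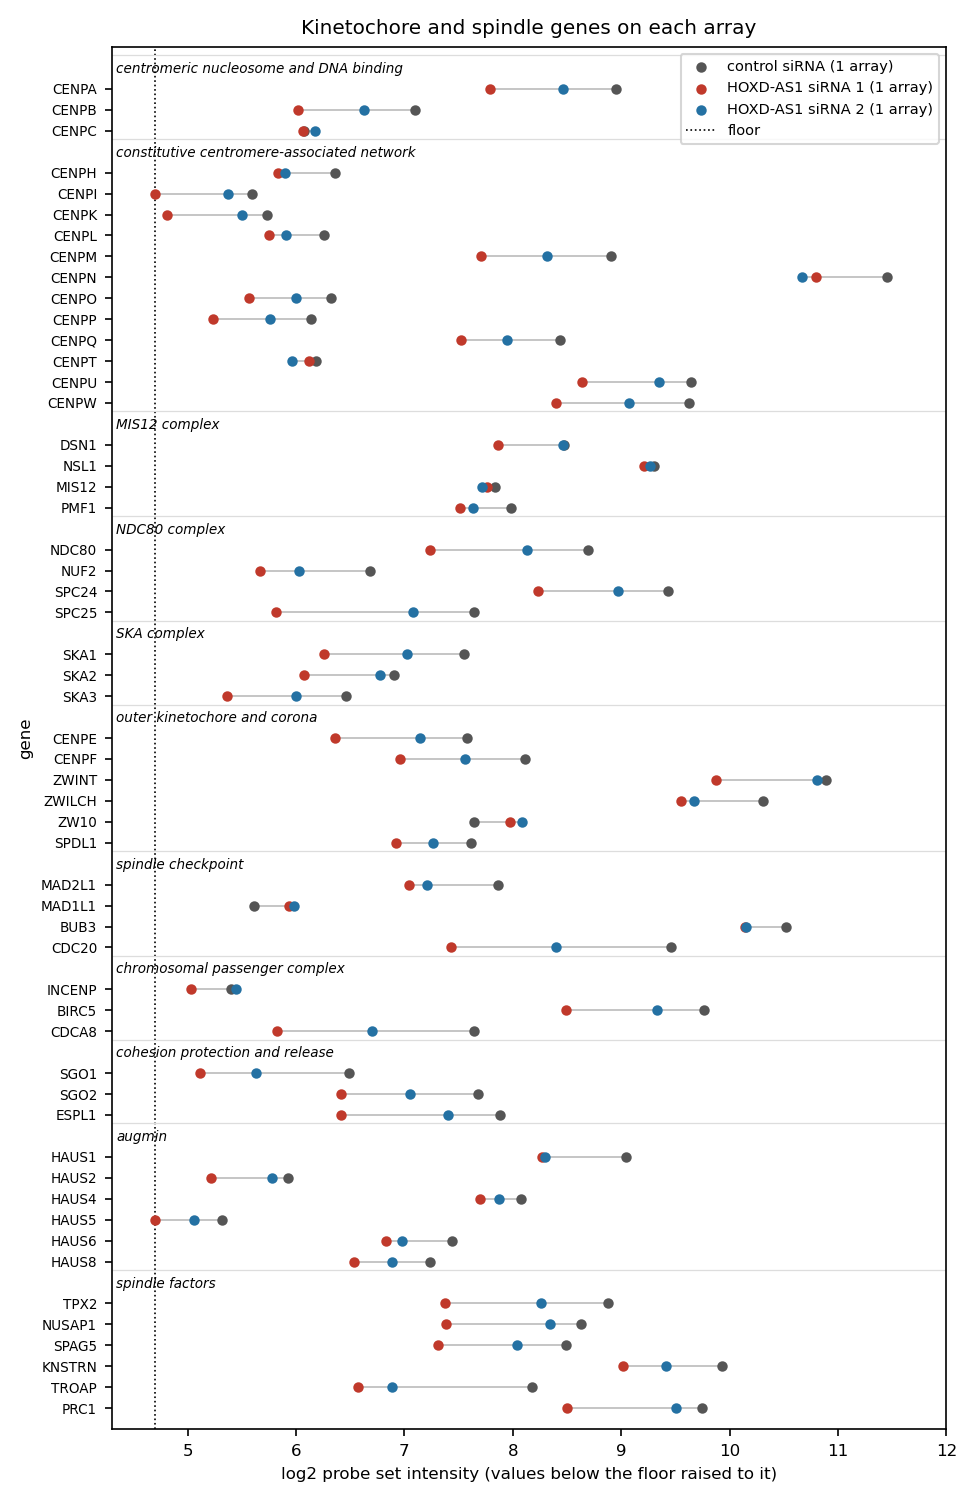
Log2 probe set intensity of the 54 kinetochore and spindle genes on the control (grey), siRNA 1 (red) and siRNA 2 (blue) arrays, 1 point per array, grouped by role; the dotted line is the floor and the grey bars join the lowest and highest array. The control point lies rightmost for 50 genes, and brightness is not comparable between genes.

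At the centromere itself the genes differed among themselves. CENPA, the histone H3 variant that marks centromeric nucleosomes, read 495 on the control array, 221 on the siRNA 1 array and 352 on the siRNA 2 array; other genes are given in the same order. The control was the highest and siRNA 1 the lowest, with log2 differences of -1.16 and -0.49. CENPB, which binds a sequence motif in centromeric satellite DNA, read 137, 64.6 and 98.6, differences of -1.08 and -0.47. The other CENPB probe set gave -0.91 and -0.34, so it did not reach 2-fold with siRNA 1. CENPC, which links the CENP-A nucleosome to the outer layers, read 67.2, 67.1 and 72.3 differences of -0.0011 and 0.11, the smallest siRNA 1 difference of any member. Its other probe set read 42.1, 37.3 and 35.3.

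The constitutive centromere-associated network, the platform of the inner kinetochore, was lower with both siRNAs in all 12 of its listed genes, with medians of -0.90 and -0.37. Calls at 2-fold were made for 3 of them with siRNA 1 and for 0 with siRNA 2. CENPW, a histone-fold subunit that pairs with CENP-T, read 788, 337 and 539. Its siRNA 1 difference of -1.23 was the largest of the network, beside -0.55 with siRNA 2. Its partner CENPT read 72.8, 69.5 and 62.3, differences of -0.07 and -0.22, so the 2 histone-fold partners stood at opposite ends of the network with siRNA 1. CENPM read 478, 209 and 319 (-1.20 and -0.58), and CENPU read 800, 397 and 650 (-1.01 and -0.30), a fold of 2.01 with siRNA 1 that is at the edge of a call. The other CENPU probe set gave larger differences of -1.26 and -0.42. The remaining subunits CENPH, CENPI, CENPK, CENPL, CENPO, CENPP and CENPQ lay between -0.93 and -0.51 with siRNA 1 and between -0.48 and -0.23 with siRNA 2. CENPI was below the floor with siRNA 1 (23.9 against 48.3 in the control), so its fold of at least 1.86 is a bound. CENPN, which binds the CENP-A nucleosome directly, was the only gene of the network with siRNA 2 lower than siRNA 1 by every measured probe set. It read 2803, 1783 and 1631, differences of -0.65 and -0.78, and its 4 further probe sets above the floor gave siRNA 1 minus siRNA 2 differences of 0.06 to 0.22.

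The MIS12 complex joins that platform to the microtubule-binding NDC80 complex, and the members of the complexes differed by different amounts. MIS12 complex genes had medians of -0.28 and -0.08 and 0 of 4 was called with either siRNA. DSN1 read 356, 233 and 352, so only the siRNA 1 array was low (-0.61 and -0.02). NSL1 read 633, 592 and 614, MIS12 read 228, 217 and 210, and PMF1 read 253, 183 and 198. The NSL1 and MIS12 differences were between -0.12 and -0.04 on both arrays.

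NDC80 complex genes, which encode the 4 subunits of the main microtubule coupler, were all called with siRNA 1 and none with siRNA 2, with medians of -1.33 and -0.56. SPC25 read 199, 56.3 and 135. It was 3.54-fold lower on the first siRNA array and 1.47-fold on the other, and its siRNA 1 difference of -1.82 ranked 6 from the lowest of all 18131 genes. NDC80 read 415, 151 and 281, or 2.76-fold and 1.48-fold lower. SPC24 read 692, 300.1 and 502 (-1.21 and -0.46), with 4 further probe sets between -1.25 and -0.88 with siRNA 1. The probe sets at those ends read 25.6 and 21.7 with siRNA 1, below the floor, so both values are bounds. NUF2 read 103, 51.0 and 65.1 (-1.01 and -0.66), again at the edge of a call with siRNA 1. The SKA complex, which helps NDC80 track microtubule ends, had medians of -1.10 and -0.46, with SKA1 at 187, 76.3 and 130.4 and SKA3 at 87.9, 41.1 and 63.9. SKA2 depended on the probe set. The brighter one read 119, 67.3 and 109.5, with siRNA 1 lowest, and the other read 64.2, 44.3 and 34.9, with siRNA 2 lowest.

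In the outer kinetochore and corona, 5 of 6 genes were lower with both siRNAs and ZW10 was higher with both. CENPE, a kinesin that carries chromosomes to the spindle equator, read 190.4, 82.1 and 141 (-1.21 and -0.43). CENPF, a large coiled-coil protein of the corona, read 277, 124 and 189 (-1.16 and -0.55). ZWINT, which anchors the ROD-ZW10-ZWILCH complex at the kinetochore, read 1902, 939 and 1789. Here siRNA 2 was close to the control (-0.09) and only siRNA 1 was low (-1.02), and the other ZWINT probe set gave -1.35 with siRNA 1 and -0.39 with siRNA 2. The subunits of the complex that ZWINT anchors went different ways. ZWILCH read 1269, 749 and 815 (-0.76 and -0.64), with 3 further probe sets between -0.96 and -0.79 with siRNA 1 and between -1.19 and -0.72 with siRNA 2. ZW10 read 200.3, 251 and 272, so the control was the lowest array (0.33 and 0.44). SPDL1, an adaptor for dynein at the corona, read 196, 121 and 154.

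Among checkpoint genes CDC20 had the largest difference of any member with siRNA 1. It read 703, 173 and 337, or 4.07-fold and 2.09-fold lower, and only 1 of all 18131 genes had a lower siRNA 1 value. Its other measured probe set read 81.5, 37.0 and 58.6, so the order of the arrays was the same and the differences smaller (-1.14 and -0.48). MAD2L1, which encodes the checkpoint protein that captures CDC20, read 234, 132 and 148, differences of -0.82 and -0.66. Another MAD2L1 probe set gave -1.35 and -1.24. BUB3, an adaptor of the checkpoint kinases, read 1472, 1127 and 1140, with nearly equal differences of -0.39 and -0.37. MAD1L1, the partner that holds MAD2 at the kinetochore, was higher with both siRNAs by all 3 of its probe sets. The probe set used read 49.0, 61.2 and 63.2 (0.32 and 0.37).

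Of the chromosomal passenger complex, which corrects faulty attachments through the kinase AURKB, CDCA8 and BIRC5 were lower with both siRNAs and INCENP with siRNA 1 only. CDCA8, the borealin gene, read 200.3, 56.5 and 104, or 3.55-fold and 1.93-fold lower, rank 5 among all genes with siRNA 1. BIRC5, the survivin gene, read 867, 359 and 643 (-1.27 and -0.43). It had 12 probe sets, 11 of them above the floor, and the 10 further ones ranged from -1.68 to -0.17 with siRNA 1 and from -0.72 to 0.01 with siRNA 2. The -0.17 came from a probe set at 29.2 on the control array and 19.1, below the floor, with siRNA 1, so it is a bound. A value of -0.27 from another, which read 31.3 and 18.7, is a bound too. INCENP, the scaffold of the complex, read 42.3, 32.7 and 43.5, so only the siRNA 1 array was low, at a level not far above the floor.

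Genes that protect and release sister chromatid cohesion were lower on both siRNA arrays, and all 3 analysed were called with siRNA 1. SGO1, a shugoshin that protects centromeric cohesion, read 89.9, 34.7 and 49.6, or 2.59-fold and 1.81-fold lower. SGO2 read 205, 85.3 and 133. ESPL1, the separase that cleaves cohesin at anaphase, read 236, 85.2 and 169, differences of -1.47 and -0.48. In each of them siRNA 2 lay between the other arrays.

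Augmin, the complex that nucleates new microtubules from the sides of existing ones, was lower with both siRNAs in all 6 listed subunits and called in none, with medians of -0.66 and -0.31. HAUS1 read 527, 308 and 315, with nearly equal differences of -0.78 and -0.74. HAUS2 read 60.6, 37.1 and 54.7, and HAUS8 read 151, 93.0 and 118. HAUS4 had the smallest siRNA 1 difference of the complex, at 271, 207 and 234 (-0.38 and -0.21). HAUS6 read 173, 114 and 126. HAUS5 was below the floor with siRNA 1, at 19.7 against 39.9 in the control and 33.3 with siRNA 2, a fold of at least 1.54. The other HAUS5 probe set read 26.9, 23.1 and 28.1, near the floor. It gave -0.05, a bound, and 0.06, so it was not lower with siRNA 2.

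Spindle factors were lower with both siRNAs in all 6 genes, with medians of -1.24 and -0.48, and 5 were called with siRNA 1. TROAP, a microtubule-associated protein needed for bipolar spindles, had the largest siRNA 2 difference of any member. It read 290.0, 95.2 and 118, or 3.05-fold and 2.46-fold lower. TPX2, which activates the kinase AURKA on spindle microtubules, read 469, 166 and 306, or 2.83-fold and 1.53-fold lower. NUSAP1, a microtubule bundling protein, read 396, 167 and 325 (-1.24 and -0.28), and PRC1, which crosslinks the central spindle, read 857, 362 and 725 (-1.24 and -0.24). For these genes the siRNA 2 array stood closer to the control than to siRNA 1 by the probe set used. The further NUSAP1 probe sets gave -1.44 and -1.31 with siRNA 1, and -0.62 and -0.75 with siRNA 2. By the second of them siRNA 2 stood closer to siRNA 1 (siRNA 1 minus siRNA 2 of -0.56) than to the control. The further PRC1 probe sets gave -0.97 and -0.56 with siRNA 1, and -0.53 and -0.56 with siRNA 2. They read 19.6 and 23.0 with siRNA 1, below the floor, and the second read 21.8 with siRNA 2. All of these PRC1 differences except -0.53 are therefore bounds. SPAG5 read 359, 158 and 263. KNSTRN, a kinetochore-localised partner of SPAG5, read 976, 517 and 684 (-0.92 and -0.51) and was the one spindle factor not called.

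**Figure D2:**
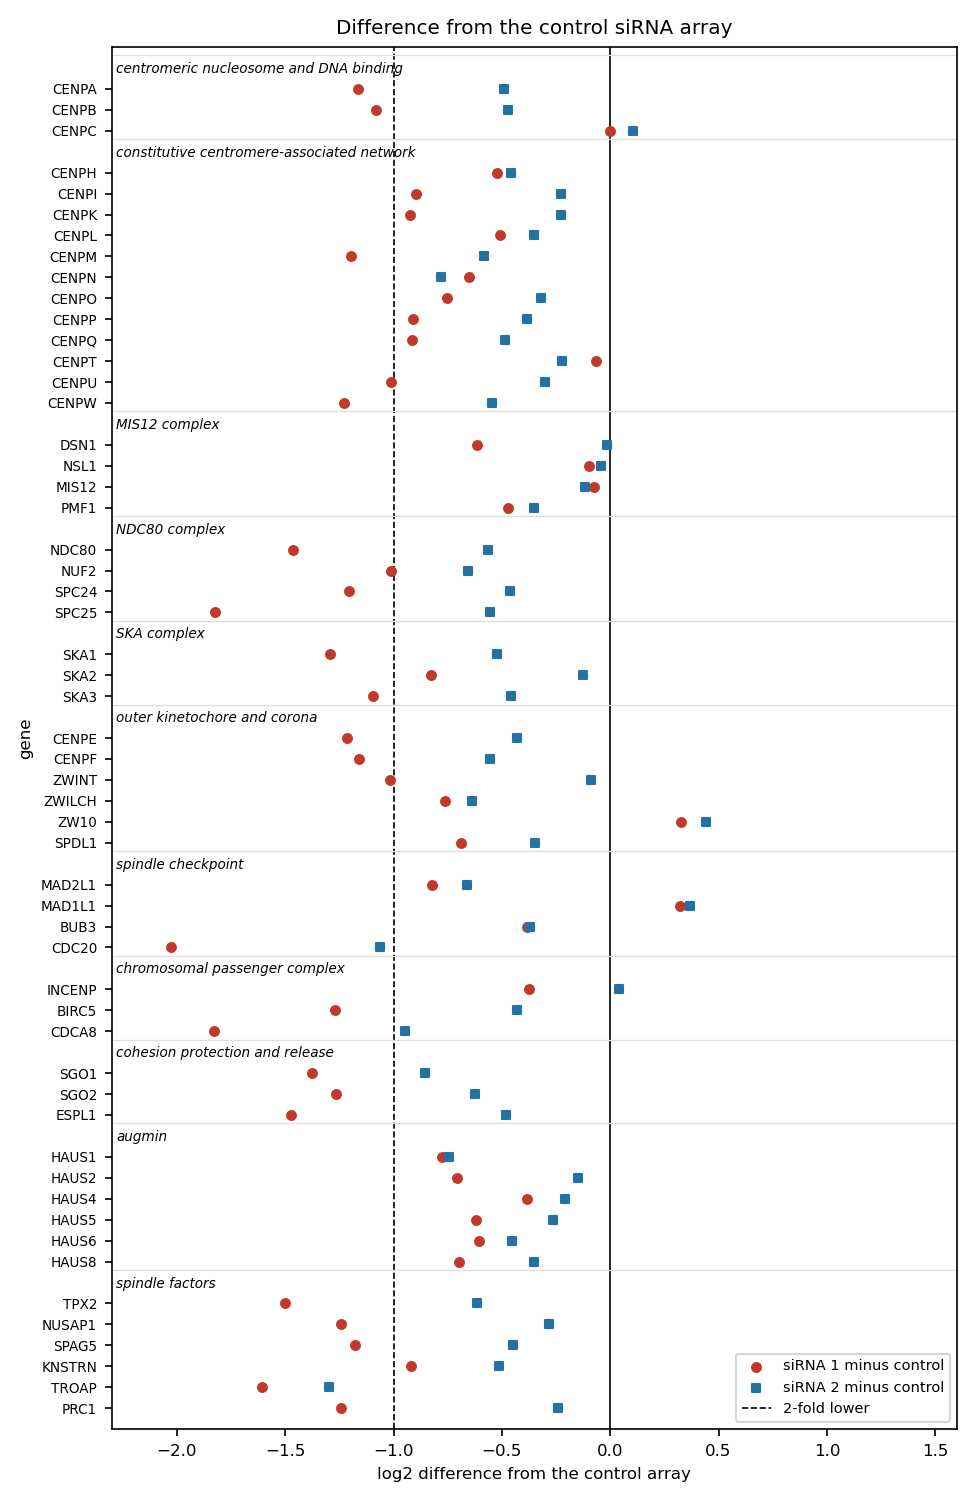
Log2 difference from the control array for siRNA 1 (red circles) and siRNA 2 (blue squares), 1 value per gene and array, by role; the solid line is 0 and the dashed line a 2-fold lower level. All NDC80 complex genes are left of the dashed line with siRNA 1, MIS12 complex and augmin genes are right of it, and ZW10 and MAD1L1 are right of 0 with both siRNAs.

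The siRNA arrays were also compared with each other, a comparison that does not use the control. Of the 54 members, 51 were lower with siRNA 1, where 53.1% of measured and 33.1% of all genes were, and the median difference was -0.54 against -0.02 over all measured genes. At 1.5-fold 26 were lower with siRNA 1 (48.1%, against 4.87% of measured and 3.03% of all genes). At 2-fold there were 2, SPC25 (-1.27) and PRC1 (362 against 725), against 0.656% of measured and 0.408% of all genes. The 3 members with siRNA 2 lower, MIS12, CENPN and CENPT, differed by 0.04 to 0.16. By role the medians were lowest for the chromosomal passenger complex (-0.84), the NDC80 complex (-0.82), the spindle factors (-0.81) and the SKA complex (-0.70), and closest to 0 for the MIS12 complex (-0.09), the spindle checkpoint (-0.10) and augmin (-0.26).

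**Figure D3:**
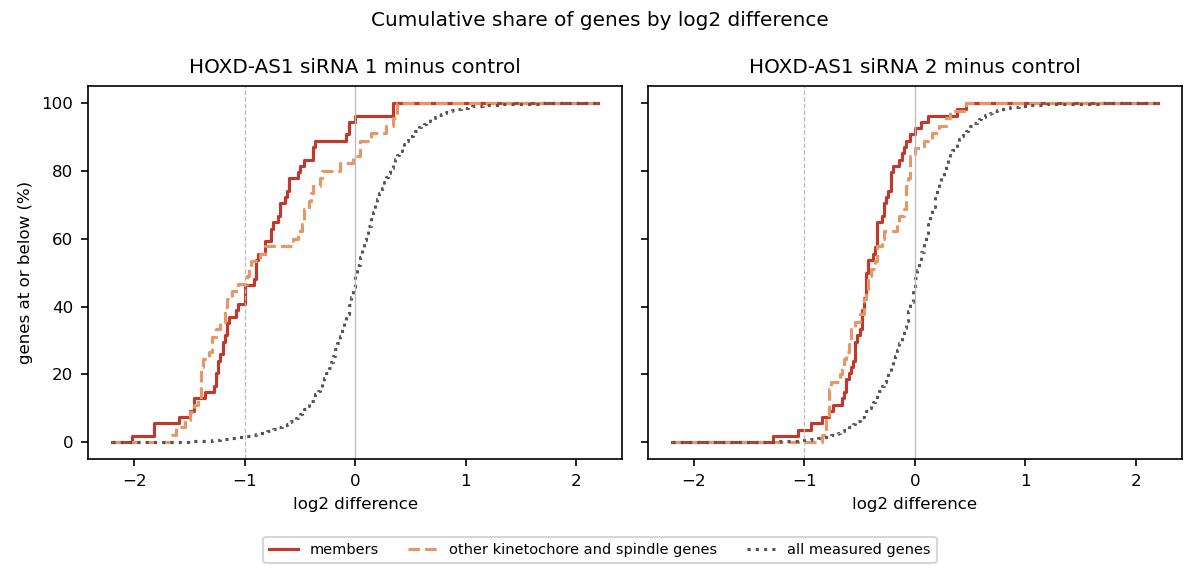
Cumulative percentage of genes at or below each log2 difference from the control, for siRNA 1 (left) and siRNA 2 (right), over the 54 members (solid), 45 other kinetochore and spindle genes (dashed) and 11286 measured genes (dotted). With siRNA 1 the members reach 46.3% at a 2-fold lower level, where measured genes reach 1.76%.

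Different probe sets of the same gene gave a further reading on the same arrays. They share the array and the RNA, so they bear on the probe and not on the biological error. Of the 132 member probe sets 111 were above the floor on at least 1 array, and 102 of these were lower with both siRNAs and 4 higher with both. The same shares over all probe sets are not given here, so the probe set counts in this paragraph describe the members only. In 22 of the 27 members with more than 1 measured probe set every one was lower with both siRNAs; the others were MAD1L1, CENPC, CENPT, HAUS5 and BIRC5. The SD over the probe sets of a gene had a median of 0.18 for the siRNA 1 difference and 0.16 for the siRNA 2 difference. Some values in these SDs were raised to the floor, so the SDs reflect the floor as well as probe choice. Differences between genes of that size or less, such as SPC24 (-1.21) against CENPA (-1.16) with siRNA 1, are within this spread. Of the 7 member probe sets that passed 2-fold with siRNA 2, 2 were those used for CDC20 and TROAP, and the further ones were 2 of ZWILCH and 1 each of MAD2L1, CENPN and TROAP. The remaining probe sets of these genes above the floor did not pass, such as a TROAP probe set at -0.37 and a MAD2L1 probe set at -0.51.

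**Figure D4:**
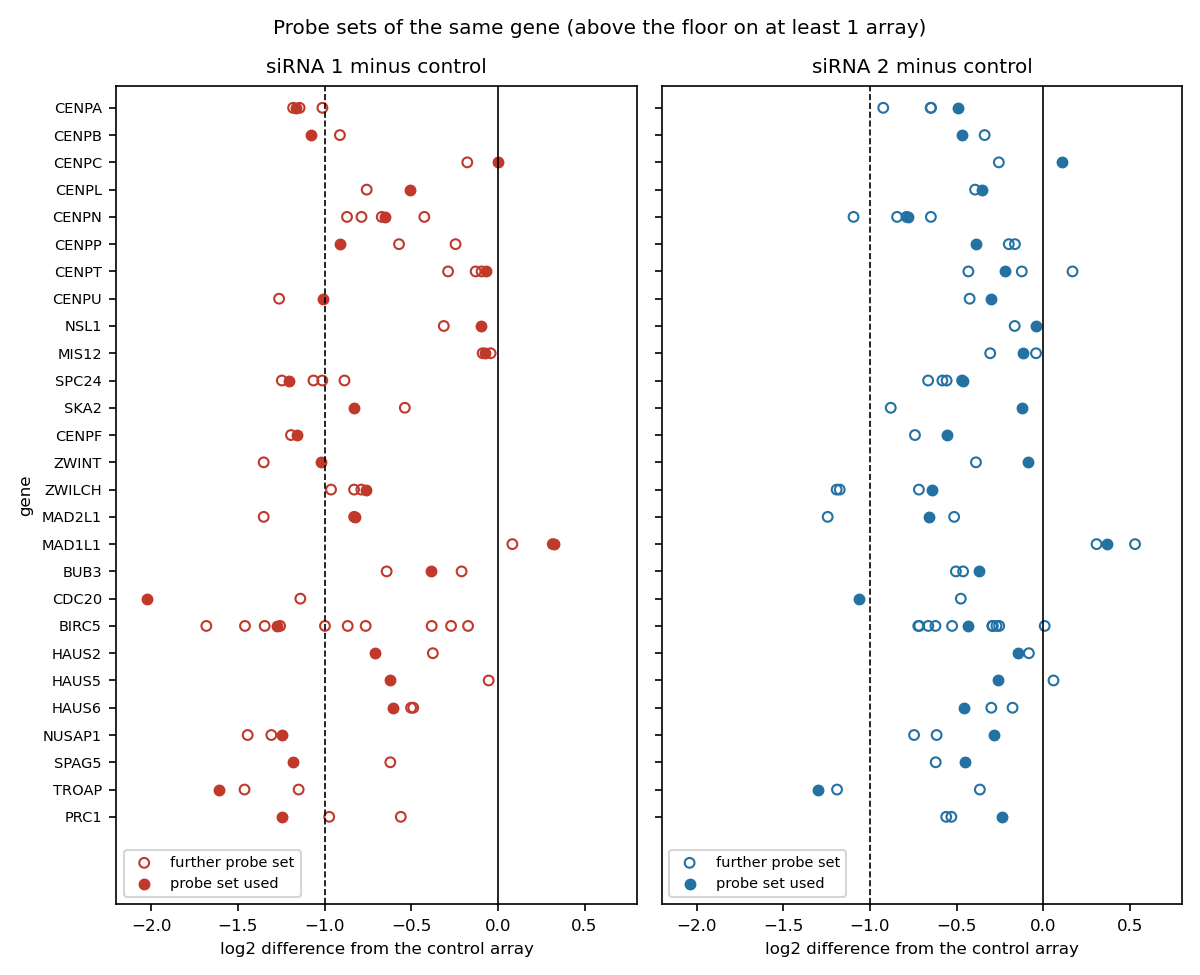
Log2 difference from the control of every probe set above the floor on at least 1 array, for the 27 members with more than 1, with siRNA 1 (left) and siRNA 2 (right). Filled points are the probe sets used for the gene and open points the further ones. Points of BIRC5 spread from -1.68 to -0.17 with siRNA 1, where -0.17 is a bound set by the floor. Those of CENPA spread from -1.18 to -1.01.

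Promoters of the members were read next, since many members were low together. RefSeq promoters of GRCh38.p14, from 250 bases before to 50 after each gene's start, were matched by symbol for 47 of the 54 members, as 54 windows because some genes have several starts. The cell cycle genes homology region, CHR, was searched as TTTGAA on both strands, with the CCAAT box, CCAAT on both strands, beside it. Both are elements known from promoters of genes transcribed in G2 and mitosis, and the sequences are shown because the CHR letters lay close to the start in most of the lowest members. CHR letters were in 42.6% of member windows, against 12.4% of the 20402 windows of genes with a probe set and 15.2% of all 35116 windows of the same length. CCAAT was in 55.6% of member windows, against 34.7% and 34.6%. Whole windows are shown for CDC20, called with both siRNAs, and for ZW10 and MAD1L1, higher with both. Capitals mark CHR and CCAAT matches on either strand (TTCAAA and ATTGG are their reverse complements), and windows run in the direction of transcription.
CDC20 (chr1:43358731-43359030, plus strand): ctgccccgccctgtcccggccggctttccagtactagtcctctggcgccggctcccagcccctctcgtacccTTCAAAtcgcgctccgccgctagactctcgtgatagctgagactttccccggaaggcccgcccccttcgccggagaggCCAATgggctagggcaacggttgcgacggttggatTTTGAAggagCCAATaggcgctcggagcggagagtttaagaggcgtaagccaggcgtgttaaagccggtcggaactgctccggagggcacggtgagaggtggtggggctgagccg
ZW10 (chr11:113773643-113773942, minus strand): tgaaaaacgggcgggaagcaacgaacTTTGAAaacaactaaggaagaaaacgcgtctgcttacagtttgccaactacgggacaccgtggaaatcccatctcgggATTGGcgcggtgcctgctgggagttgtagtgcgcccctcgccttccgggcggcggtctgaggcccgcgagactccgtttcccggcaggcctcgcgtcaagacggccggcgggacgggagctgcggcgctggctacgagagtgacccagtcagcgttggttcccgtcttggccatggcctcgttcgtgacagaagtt
MAD1L1 (chr7:2232896-2233195, minus strand): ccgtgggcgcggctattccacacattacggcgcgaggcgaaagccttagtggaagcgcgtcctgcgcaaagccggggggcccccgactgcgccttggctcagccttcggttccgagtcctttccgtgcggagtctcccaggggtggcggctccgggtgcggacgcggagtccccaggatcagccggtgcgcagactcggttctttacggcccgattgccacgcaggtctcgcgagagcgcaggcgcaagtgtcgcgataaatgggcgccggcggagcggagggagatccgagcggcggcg

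The stretch around the CHR match nearest the start, with up to 30 bases on each side inside the window, is shown for CDCA8, SPC25, NDC80, ESPL1 and CENPA. These are the 5 with a match beginning before the start among the 8 called members, beside CDC20, that held a match and had the lowest mean of both differences; SKA1, CENPF and NUF2, whose match lay after the start, are named only. In CDCA8 the CHR and CCAAT letters share a base.
CDCA8 (chr1:37692463-37692528, plus strand): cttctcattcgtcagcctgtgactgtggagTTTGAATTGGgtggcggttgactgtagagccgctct
SPC25 (chr2:168890398-168890463, minus strand): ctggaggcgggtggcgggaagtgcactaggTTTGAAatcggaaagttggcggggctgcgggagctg
NDC80 (chr18:2571524-2571589, plus strand): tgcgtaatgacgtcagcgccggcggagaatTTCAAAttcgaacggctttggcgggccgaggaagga
ESPL1 (chr12:53268238-53268303, plus strand): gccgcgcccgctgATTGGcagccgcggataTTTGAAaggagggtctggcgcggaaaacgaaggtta
CENPA (chr2:26786008-26786073, plus strand): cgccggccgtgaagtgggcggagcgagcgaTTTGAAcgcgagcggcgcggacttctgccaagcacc

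Members with CHR letters were lower as a group than members without. The 22 with a match had medians of -1.13 and -0.47, with 14 called with siRNA 1 (63.6%), and the 25 without had medians of -0.83 and -0.35, with 7 called (28.0%). By the CCAAT box, the 27 members with it had medians of -1.01 and -0.46, with 14 called (51.9%). The 20 without it had medians of -0.76 and -0.39, with 7 called (35.0%). Many members, such as CDC20, CDCA8 and SPC25, held both motifs, so the divisions overlap and are not separate results. Among members with CHR letters and no CCAAT, NDC80, NUF2, SKA1, SKA3 and SPAG5 were called and CENPO and HAUS8 were not. The 7 members without a window were CENPH, CENPL, CENPM, BUB3, BIRC5, TPX2 and TROAP, of which CENPM, BIRC5, TPX2 and TROAP were called. Over all genes with a probe set and a window, 2.57% of the 2298 with CHR letters and 0.899% of the 12126 without were called with siRNA 1, and 1.82% of those with CCAAT and 0.686% of those without. In the 14 called members the nearest match began between 65 bases before and 41 after the start (positions -65 and 41). Of the 8 members with a match that were not called, 6 had it inside that range, namely SPDL1 at -20, HAUS8 at -14, INCENP at -10, CENPN at 4, MAD2L1 at 25 and CENPO at 37, and the other 2 were CENPC at -90 and ZW10 at -224. Position thus did not separate called from uncalled members. In a narrower window from 100 bases before to 50 after the start, chosen after these positions were seen, 40.7% of member windows and 5.22% of windows of genes with a probe set held the letters. MAD1L1 had neither motif. The 7 called members without CHR letters in these windows were CENPB, CENPU, CENPW, SPC24, CENPE, SGO1 and SGO2. A match is a description of the letters and was not tested as a site.

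**Figure D5:**
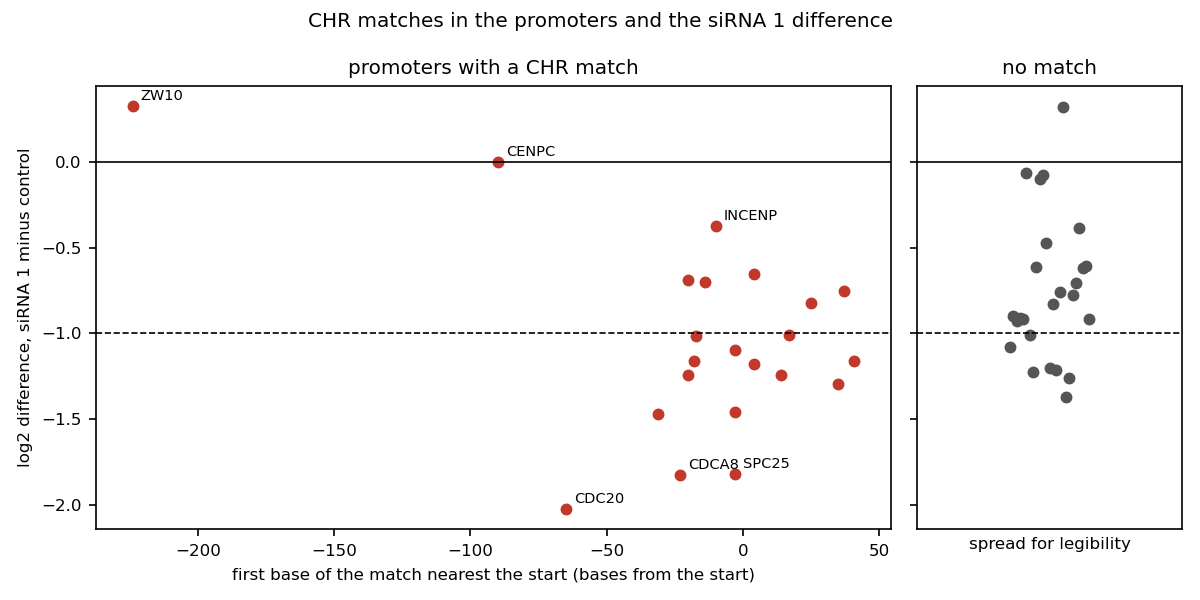
Log2 difference of siRNA 1 from the control against the position of the CHR match nearest the start, in bases, for the 22 members with a match (left), and the same difference for the 25 members without (right, spread sideways for legibility). The 14 called members with a match, on or below the dashed 2-fold line, lie between -65 and 41, and 6 of the 8 uncalled ones lie in the same range, with CENPC and ZW10 farther from the start.

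Other genes of the same machinery gave like medians, though more of them read above the control. Of 46 further kinetochore and spindle genes 45 had a probe set, with medians of -0.97 and -0.42. Of the 45, 35 were lower with both siRNAs and 3 higher with both. Calls were made for 21 with siRNA 1 and 0 with siRNA 2. With siRNA 1, 7 of the 45 were above the control, against 2 of the 54 members. With siRNA 2 it was 6 against 4. The list was chosen with earlier results of these data known. FAM83D, which recruits a kinase to the spindle, read 852, 275 and 491, KIF2C, a microtubule-depolymerising kinesin of the centromere, read 557, 195 and 318, and AURKB, the kinase of the passenger complex, read 391, 123 and 260. At the other end NUMA1, a spindle pole protein, read 556, 695 and 684, and PAFAH1B1, a dynein regulator with roles outside mitosis, read 433, 562 and 593. KNTC1, the third subunit of the ROD-ZW10-ZWILCH complex, read 141, 73.3 and 102 (-0.95 and -0.47), on the side of ZWILCH rather than of ZW10; it was chosen after its values were seen.

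Cohesin ring genes and regulators did not share the pattern as a list, with medians of 0.11 and 0.10 over 13 genes. In that list CDCA5 (-1.35 and -0.47) and ESCO2 (-1.10 and -0.24), both needed for cohesion in dividing cells, were the only 2 called. Of 16 genes of the anaphase-promoting complex and its partners, the medians were -0.13 and -0.03 and 3 were called with siRNA 1, namely UBE2S, FBXO5 and UBE2C. DNA replication genes were low on the same arrays. Of 26, 24 were lower with both siRNAs, with medians of -1.10 and -0.43, and 17 were called with siRNA 1 and 1 with siRNA 2; their part in the kinetochore result was not tested. The 10 housekeeping genes had medians of 0.04 and -0.01 and none was called.

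Array-wide signal was closely matched, with median intensities of 25.7 to 26.1. The deposited values have nearly the same distribution on all arrays, so this match does not measure RNA or array quality. Of 12 luminal markers of LNCaP 9 had a probe set, all above the floor, and their intensities summed to 15410, 16793 and 14361 on the control, siRNA 1 and siRNA 2 arrays. All 4 leukocyte markers with a probe set, PTPRC, CD3E, CD14 and LYZ, were below the floor on every array, as were KRT5 and KRT15 of 3 basal markers and COL1A2, DCN and LUM of 6 stromal markers. Summed basal intensities were 80.2, 93.1 and 87.7, and stromal ones 729, 665 and 838. VIM made up most of the stromal sum, at 660, 593 and 735, and COL3A1, a collagen gene, read 17.9, 28.4 and 50.4, so it was above the floor on the siRNA arrays only. Of the 9 luminal markers 5 were higher and 3 lower with both siRNAs. ACP3, the prostatic acid phosphatase gene, differed most, higher by 1.22 with siRNA 1 and 1.80 with siRNA 2 on the log2 scale. The 3 lower ones were SLC45A3 (-0.91 and -0.56), KLK2 (-0.10 and -0.68) and KLK3 (-0.16 and -0.43). The part of these markers in the kinetochore result was not tested.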

How the data were processed

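The authors deposited 1 table of probe set intensities on a linear scale for the 3 arrays; GCOS 1.4 is named per the submitters' processing notes, and background correction, summarisation and normalization are not given in the sources used here. All 3 arrays had nearly the same distribution (largest gap 0.098 on the log2 scale between sorted values), so these values cannot show a change shared by most transcripts. Platform annotation gave 44988 probe sets a single symbol and 1831 several, which were not named; RefSeq matched 44961 by Entrez identifier and updated 0 symbols. Log2 values, a floor at the median of all intensities, the brightest probe set per gene and differences between arrays were computed in Python 3.11.15 with pandas 2.3.3 and numpy 2.4.6, and the counting was tested on simulated data. With 1 array per group no test was run, and precision is limited by the number of arrays. A fold of 2 was a call. The members, lists, floor and alternatives were chosen with earlier results of these data known. Any member could be named; values on all 3 arrays were required for members past 2-fold, for the lowest and highest mean difference in each role group, for differences of opposite sign of at least 0.5 each, and for the highest and lowest control intensity. From each comparison list at most the 3 lowest and 3 highest were named, with KNTC1 the exception. Alternatives were another floor or none, averaged or plain probe sets, quantile or median scaling, members with a mean above the floor, and 1.5-fold.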

Additional observations from a re-analysis of the deposited data

Results flagged for a closer look

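For 2 members the siRNA arrays lay on opposite sides of the control, and this difference was not tested. INCENP read 42.3 on the control array, 32.7 on the siRNA 1 array and 43.5 on the siRNA 2 array, a siRNA 1 minus siRNA 2 difference of -0.41. CENPC read 67.2, 67.1 and 72.3, a siRNA 1 minus siRNA 2 difference of -0.11, while its other probe set was lower with both siRNAs.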

How the results depend on the processing

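Of 59 values under alternative settings 41 kept the size of the reported ones and 18 moved, and no median changed sign. A count kept its size within a ratio of 1.5, and a median within the median SD over probe sets of a gene. Keeping only members with a mean above the floor left all 54, so those values could not move. No floor gave the same values as the 25th percentile floor, and quantile scaling acted on arrays already alike in distribution. The 41 are therefore not 41 separate checks. The count of members at least 2-fold lower with siRNA 1, 25 as reported, came to 15 under a 75th percentile floor, 15 with all probe sets of a gene averaged (probe sets below the floor included), 7 with only plain _at probe sets, which left 19 members, and 42 at 1.5-fold. CENPU, NUF2 and ZWINT, at the edge of a call, were lost when arrays were shifted to a common median. The siRNA 2 count of 2, and the count with both siRNAs, was 0 with averaged probe sets, 1 with plain _at probe sets and 11 at 1.5-fold. The 50 members lower with both siRNAs were 11 with plain _at probe sets, and 37 under the 75th percentile floor. The siRNA 1 median moved to -0.64, -0.72 and -0.61 with the 75th percentile floor, averaged and plain probe sets, the siRNA 1 minus siRNA 2 median to -0.11, -0.36 and -0.27, and the siRNA 2 median was -0.27 with plain probe sets. A higher floor removes differences by construction. Of values from further probe sets, 63 differed from the gene's reported value by at least the median SD over probe sets and 51 by less. Leaving out an array was not run, since it empties a group. No paired analysis was possible because each group held 1 array.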
